A study of Mus musculus with 18 samples.

Results

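The immediate early genes described here are Fos, Fosb, Jun, Junb, Egr1, Egr2, Egr3, Nr4a1, Ier2 and Dusp1. They were taken from a list of symbols, matched to gene identifiers through the GENCODE M21 annotation of GRCm38. The rule uses no measured value, but the list was chosen with earlier results of these data known. Shares of the 10 genes set against all genes are therefore descriptions and no independent support. All 10 were found among the 51912 genes of the table. RNA sequencing was done on B cells of C57BL/6 mice that carry a knockout of Sh3gl1 (Sh3gl1-/-), the gene for the endocytic protein endophilin A2, and of wild-type Sh3gl1+/+ littermates (WT). Sorted transitional and follicular B cells were lysed without culture or treatment (ex vivo), and other follicular B cells were first cultured for 14 h with CD40L, the T cell ligand of CD40. Genotype and cell state together gave 6 groups of 3 libraries, 18 libraries in all, described as biological replicates from littermates. The labels give 14 h, while the paper's text describes the culture time differently in different places, so the time is uncertain. The ages of the mice used for sequencing are not given in the sources used here. The mice are knockout animals and not B cell-specific deletions, so an effect within the B cell and an effect of its surroundings cannot be told apart, and no follicular cells cultured without CD40L were analysed here, so the effect of CD40L and the effect of culture cannot be told apart.

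Immediate early genes are transcribed within minutes of receptor stimulation without new protein synthesis, and their mRNAs are short-lived. In B cells they are induced by the antigen receptor and by CD40 through calcium and the ERK, p38 and JNK kinases, which act on serum response factor with its ternary complex partners and on CREB. FOS and JUN family proteins pair to form the AP-1 transcription factor, the EGR proteins are zinc finger factors, and NR4A1 (Nur77) is an orphan nuclear receptor often used as a reporter of antigen receptor signalling. IER2 is a nuclear protein of the same early response, and DUSP1 is a phosphatase that switches MAP kinases off.

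Promoter sequences are shown for 3 of the genes that were lower after CD40L culture in at least 1 genotype (Fos, Nr4a1 and Dusp1) and for Egr2, which was not. RefSeq sequences on GRCm38.p6 were at hand for 7 of the 10 genes, and windows of 250 bases before the annotated start were searched on both strands for the CArG box that binds serum response factor, the cyclic AMP response element TGACGTCA, the AP-1 element TGANTCA and the EGR element GCGNGGGCG. The sequences are printed on the strand of the gene, and capitals mark a match. The Fos window is chr12:85473640-85473889 on the plus strand, the Nr4a1 window is chr15:101266596-101266845 on the plus strand, before the RefSeq start but inside the longer GENCODE gene, and the Egr2 window is chr10:67537619-67537868 on the plus strand. For Dusp1, the 200 bases at chr17:26508523-26508722 on the minus strand are given, since those nearest to the start lie in an exon of the GENCODE annotation.
Fos: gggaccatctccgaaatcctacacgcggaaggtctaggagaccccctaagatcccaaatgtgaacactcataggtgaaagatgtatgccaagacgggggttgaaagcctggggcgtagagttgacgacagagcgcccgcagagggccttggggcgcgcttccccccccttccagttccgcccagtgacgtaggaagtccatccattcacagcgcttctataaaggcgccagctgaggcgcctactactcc
Nr4a1: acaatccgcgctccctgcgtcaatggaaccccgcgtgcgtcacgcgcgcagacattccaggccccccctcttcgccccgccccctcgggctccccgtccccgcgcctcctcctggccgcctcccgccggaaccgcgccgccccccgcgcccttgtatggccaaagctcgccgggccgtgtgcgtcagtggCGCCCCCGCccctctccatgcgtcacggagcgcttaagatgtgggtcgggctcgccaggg
Dusp1: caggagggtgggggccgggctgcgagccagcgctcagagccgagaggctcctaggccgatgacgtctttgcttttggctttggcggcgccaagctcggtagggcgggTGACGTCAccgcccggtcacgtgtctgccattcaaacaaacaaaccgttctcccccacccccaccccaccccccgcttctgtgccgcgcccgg
Egr2: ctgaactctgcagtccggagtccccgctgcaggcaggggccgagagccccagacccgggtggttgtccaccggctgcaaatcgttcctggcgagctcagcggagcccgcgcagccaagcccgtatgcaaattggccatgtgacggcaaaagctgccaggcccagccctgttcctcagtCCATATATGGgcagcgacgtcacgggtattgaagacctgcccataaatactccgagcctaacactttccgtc

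A CArG box was found in 1.47% of the 32851 RefSeq windows and, among the 7 genes, in Egr2, in 4 of its 5 listed windows. In the window shown it lies 72 to 63 bases before the start. TGACGTCA was found in 1.55% of all windows and, among the 7 genes, in Dusp1, 143 to 136 bases before the start. GCGNGGGCG was found in 4.7% of all windows and in 2 of the 7 genes, in Nr4a1 on the minus strand, 60 to 52 bases before the start, and in Fosb. TGANTCA was found in 6.75% of all windows and in 0 of the 7 genes. The Fos, Jun and Junb windows held none of the 4 elements in exactly these letters. Bases outside the windows were not searched, so elements there are not covered. No window held more than 1 of the 4 elements.

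The libraries held 12404665 to 18366011 counts, so a floor of 3 counts corresponded to 0.163 to 0.242 CPM (counts scaled to library size). Sh3gl1 itself had 377 to 929 counts in WT libraries and 1 to 22 counts in Sh3gl1-/- libraries. The 5 B cell markers summed to between 4931 and 12940 TPM (transcript abundance scaled to gene length and library), and the 5 transitional markers to 885 to 1903 TPM in transitional cells and 533 to 822 TPM in follicular cells ex vivo, with no overlap between the stages. Markers of other cells moved with genotype. In follicular cells ex vivo the 6 T cell markers summed to 122 to 146 TPM in WT and 181 to 221 TPM in Sh3gl1-/- libraries. Of the 6, 4 were higher without overlap, against 8.06% of all genes tested. The 6 neutrophil markers summed to 139 to 332 TPM in WT and 343 to 1521 TPM in Sh3gl1-/- follicular cells, and to at most 177 TPM in WT and 233 to 1070 TPM in Sh3gl1-/- transitional cells. In transitional cells, marginal zone markers were at 1265 to 1561 TPM in WT and 547 to 707 TPM in Sh3gl1-/- libraries, and plasma cell markers at 393 to 624 and 986 to 3906 TPM, mostly Jchain.

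By the deposited TPM, which allow genes to be compared with each other, the 10 genes were expressed at low to moderate levels ex vivo, 5 of them well above the others. Nr4a1, Ier2, Fos, Egr1 and Egr2 were the 5 highest in each of the 4 ex vivo groups, with group means from 3.19 TPM for Egr1 in Sh3gl1-/- follicular cells to 14.2 TPM for Nr4a1 in WT transitional cells. Dusp1, Jun, Junb, Egr3 and Fosb had ex vivo means from 0.130 to 2.39 TPM, and Fosb was the lowest of the 10 in all 6 groups.

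The summed TPM of the 10 genes was 51.6 ± 0.744 (SD, n = 3) in WT follicular cells and 34.6 ± 4.19 in Sh3gl1-/- follicular cells, and these groups did not overlap. It was 44.3 ± 1.59 in WT and 37.8 ± 2.84 in Sh3gl1-/- transitional cells, also without overlap. After CD40L culture it was 18.7 ± 4.39 in WT and 20.4 ± 2.91 in Sh3gl1-/- cells, where the ranges overlapped. The sum fell below that of each ex vivo library in all 6 cultured libraries. These sums are descriptions of the list and carry no test. In bulk RNA, fewer cells that express a gene and less RNA per cell cannot be told apart.

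**Figure D1:**
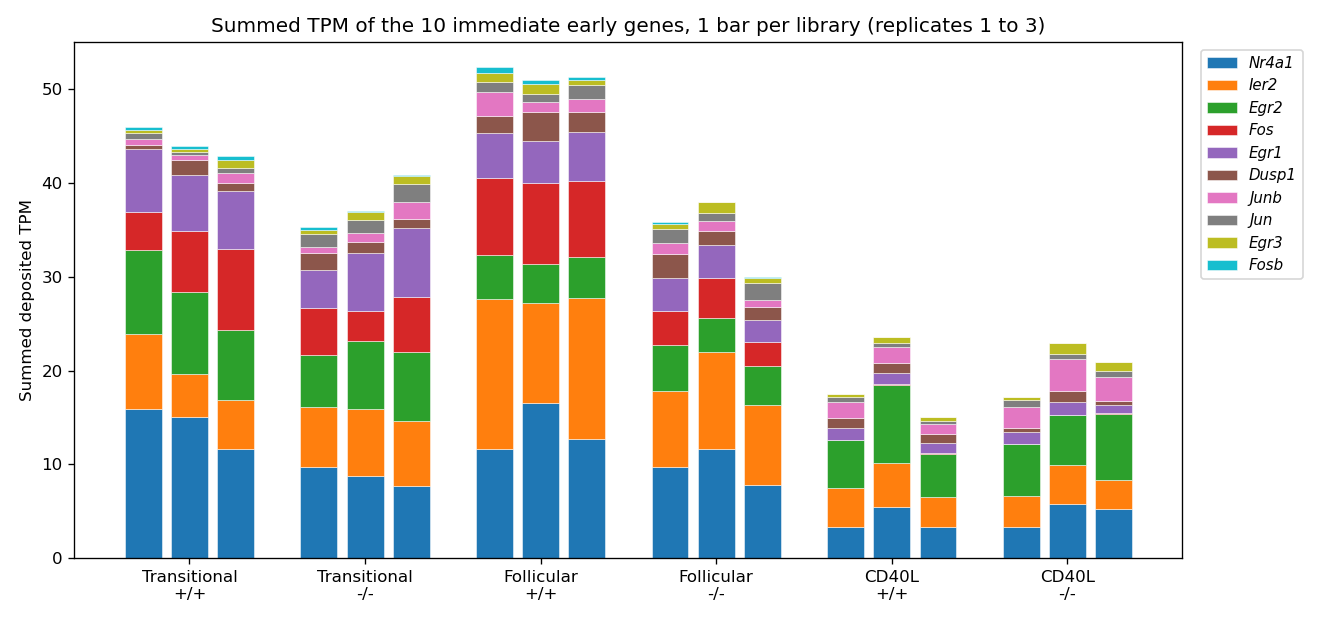
Summed deposited TPM of the 10 genes (y axis), stacked by gene, with 1 bar for each of the 3 libraries of the 6 groups (+/+, WT; -/-, Sh3gl1-/-). The bars stand at 51.0 to 52.4 TPM in WT follicular cells, at 29.9 to 38.0 TPM in Sh3gl1-/- follicular cells and at 15.1 to 23.6 TPM in the 6 cultured libraries, in which the Fos share is hardly visible.

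Composition changed with the level. Fos and Fosb made up 76.2% ± 5.96 (SD, n = 3) of the summed TPM of Fos, Fosb, Jun and Junb in WT follicular cells and 59.9% ± 9.46 in Sh3gl1-/- follicular cells, and 84.0% ± 5.82 and 64.0% ± 7.77 in transitional cells. After CD40L culture the share was 5.14% ± 3.38 in WT and 2.23% ± 2.81 in Sh3gl1-/- cells. Among the 3 EGR genes, Egr2 made up 43.9% ± 1.15 in WT follicular cells ex vivo and 78.6% ± 2.96 after CD40L, with 52.3% ± 7.52 and 74.7% ± 6.43 in Sh3gl1-/- cells. Among these 4 AP-1 genes the transcripts thus went from mostly Fos and Fosb to mostly Jun and Junb, and among the 3 EGR genes the Egr2 share rose. The summed TPM of Jun and Junb was 2.79 in WT follicular cells ex vivo and 1.91 after CD40L, and 2.35 and 3.36 in Sh3gl1-/- cells. Other AP-1 genes were not part of this share.

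**Figure D2:**
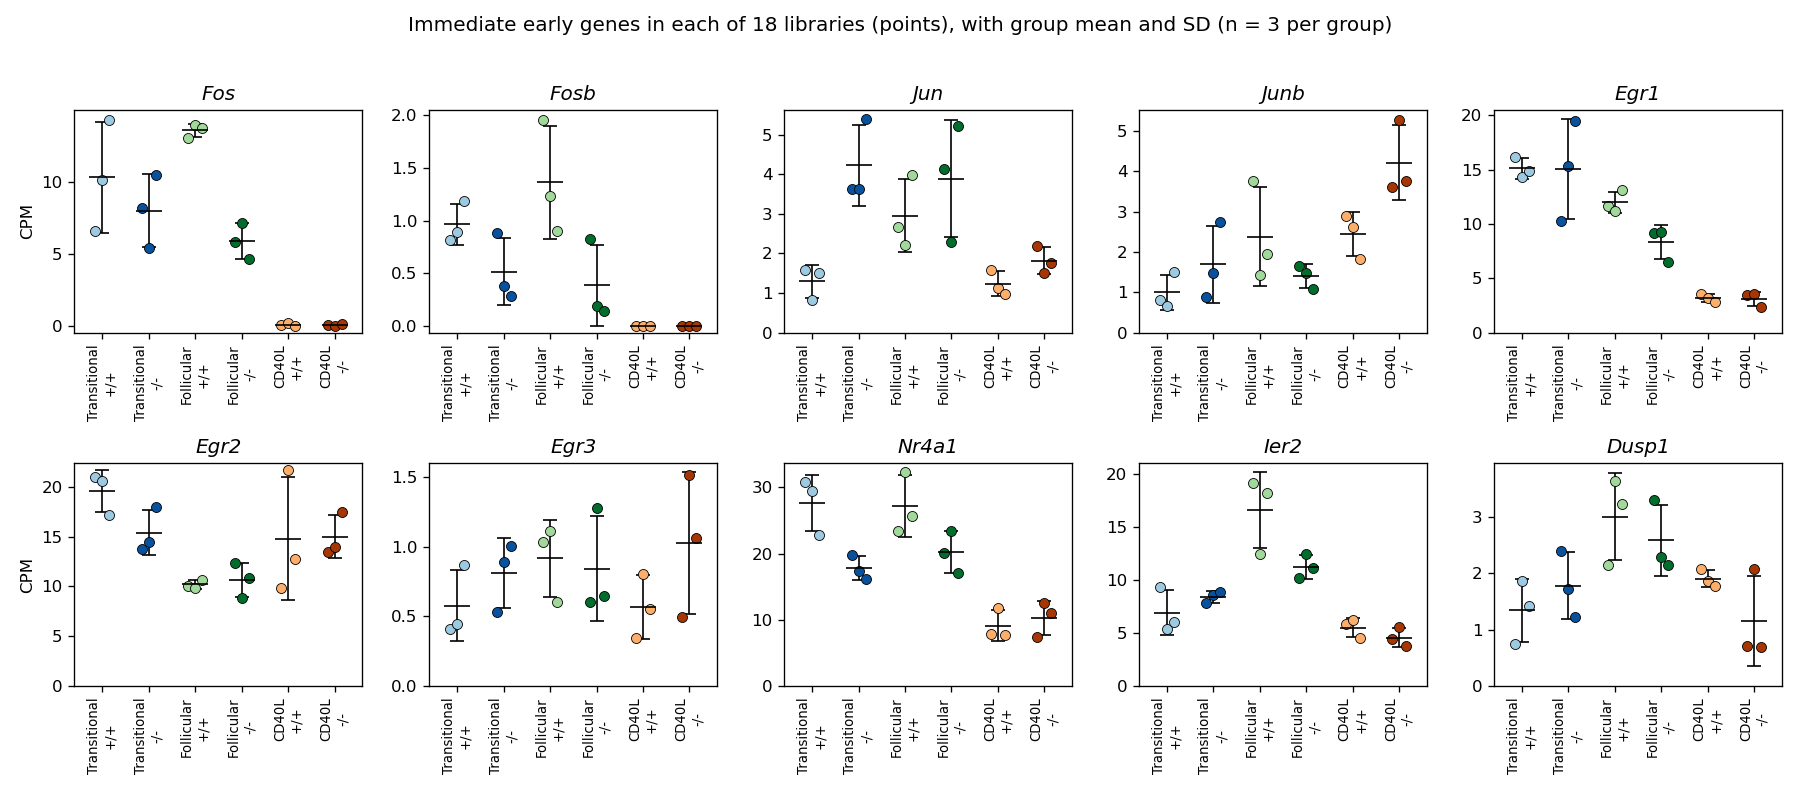
CPM (y axis, linear) of each gene in the 3 libraries of each group (points), with the group mean (long bar) and SD (whiskers). Fos lies between 13.0 and 13.9 CPM in WT follicular cells, between 4.65 and 7.15 CPM in Sh3gl1-/- follicular cells and at or below 0.268 CPM after CD40L culture, while Egr2 stays at 8.87 CPM or above in all 18 libraries.

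The order of the 6 groups, by mean CPM, differed between genes. Fos and Fosb were ordered from WT follicular through WT transitional, Sh3gl1-/- transitional and Sh3gl1-/- follicular to the 2 cultured groups, and neighbours overlapped except at the step to the cultured cells. Ier2 was ordered from WT follicular through Sh3gl1-/- follicular to the transitional and then the cultured groups, and only the first 2 steps were free of overlap. Egr1 and Egr2 were highest in the 2 transitional groups. Nr4a1 was highest in the 2 WT ex vivo groups, Jun was highest in the 2 Sh3gl1-/- ex vivo groups, and Junb was highest in Sh3gl1-/- cells after CD40L. Dusp1 was highest in the 2 follicular groups ex vivo. All neighbouring groups overlapped for Egr3.

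The comparison of Sh3gl1-/- with WT follicular cells ex vivo asks how the knockout alters resting mature B cells. Fos was lower in Sh3gl1-/- cells, and 8 of the 10 genes had a negative log2 fold change, with a median over the 10 of -0.48 against a median of -0.0029 over the 13610 genes tested. Of the 10 genes 1, Fos, passed the test, against 0.845% of all genes tested. In 4 of the 10 genes (Fos, Fosb, Egr1 and Ier2) all Sh3gl1-/- libraries were below all WT libraries, against 7.98% of all genes tested.

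Fos (chr12:85473890-85477273, plus strand) encodes the inducible AP-1 subunit c-FOS. It was at 13.0, 13.9 and 13.7 CPM in the WT libraries and at 5.86, 7.15 and 4.65 CPM in the Sh3gl1-/- libraries. The groups did not overlap, and the WT libraries lay close together. The fitted difference was -1.20 on the log2 scale (SE 0.21, 95% limits -1.65 to -0.75, 2.30-fold lower, adjusted p = 0.0249 by edgeR's quasi-likelihood test). With single libraries left out it was between -1.37 and -1.06, and it passed the threshold in 1 of 6 such fits, that without the second Sh3gl1-/- library, with adjusted p values from 0.0254 to 0.108. Over all alternatives the adjusted p ranged from 4.712e-05 to 0.173, the latter in the fit of all 18 libraries. An exact permutation test (two-sided) on 3 against 3 libraries gave p = 0.1, the smallest it allows.

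Fosb (chr7:19302696-19310051, minus strand), the paralogue of Fos, had 30, 20 and 12 counts in WT and 11, 3 and 2 counts in Sh3gl1-/- follicular cells. The highest Sh3gl1-/- library stood just below the lowest WT library, at 0.827 against 0.903 CPM. The difference was -1.82 (SE 0.69, adjusted p = 0.343). Ier2 (chr8:84661331-84662852, minus strand) was at 19.1, 12.5 and 18.1 CPM in WT and 10.1, 12.4 and 11.1 CPM in Sh3gl1-/- cells, a difference of -0.56 (SE 0.19, adjusted p = 0.287). The second WT library of Ier2 lay near the highest Sh3gl1-/- library.

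Egr1, which encodes a zinc finger factor induced by serum response factor, was at 11.7, 11.2 and 13.1 CPM in WT and 9.17, 9.25 and 6.51 CPM in Sh3gl1-/- follicular cells. The groups did not overlap and the difference was -0.53 (SE 0.20, adjusted p = 0.345). Nr4a1 (chr15:101254269-101274795, plus strand) was at 23.3, 32.4 and 25.7 CPM in WT and 20.1, 23.4 and 17.0 CPM in Sh3gl1-/- cells, and the highest Sh3gl1-/- library reached the lowest WT library (difference -0.43, SE 0.16, adjusted p = 0.343). The differences of Fosb, Ier2, Egr1 and Nr4a1 had unadjusted p values between 0.0148 and 0.0236 and did not pass the adjusted threshold.

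The remaining 5 genes overlapped between genotypes in follicular cells. Junb was at -0.77 (SE 0.47), Dusp1 at -0.22 (SE 0.36), Egr3 at -0.12 (SE 0.54), Egr2 at 0.06 (SE 0.19) and Jun at 0.39 (SE 0.39) on the log2 scale. For Egr2 the 95% limits ran from -0.35 to 0.48, whereas for Junb, with 15 to 58 counts per library, they ran from -1.79 to 0.26, and for Egr3, with 8 to 20 counts, from -1.31 to 1.06. The summed T cell and neutrophil markers given above were higher in these Sh3gl1-/- libraries, with 3 of 6 neutrophil markers higher without overlap. Of the 6 monocyte and macrophage markers 2, and of the 4 red cell markers 1, were higher without overlap. Of all genes tested, 8.06% were higher without overlap. The 5 transitional markers summed to 649 to 822 TPM in WT and 533 to 574 TPM in Sh3gl1-/- follicular cells. Of these 5, 2 were lower without overlap. The 5 B cell markers summed to 8605 to 8998 TPM in WT and 7357 to 7991 TPM in Sh3gl1-/- follicular cells, with 4 of 5 lower without overlap, and the 4 marginal zone markers to 688 to 910 and 461 to 483 TPM, with 1 of 4 lower without overlap. Of all genes tested, 7.98% were lower without overlap. The part of these markers in the differences was not tested.

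In transitional cells, Jun was the gene of the 10 that differed by the test, and it was higher in Sh3gl1-/- cells (1 of the 10 genes called, against 3.73% of the 13774 genes tested). The median of the 10 log2 fold changes was 0.14, against 0.02 over all genes tested. Jun (chr4:95049034-95052222, minus strand) encodes c-JUN, the partner of FOS. It had 23, 11 and 19 counts in WT (1.57, 0.819 and 1.501 CPM) and 62, 57 and 75 counts in Sh3gl1-/- transitional cells (3.63, 3.64 and 5.39 CPM). The lowest Sh3gl1-/- library was well above the highest WT library. The difference was 1.69 (SE 0.38, 95% limits 0.83 to 2.55, 3.23-fold higher, adjusted p = 0.0447). The direction was kept without any 1 library, with log2 fold changes from 1.45 to 1.86, but the adjusted p then lay between 0.0632 and 0.192.

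Nr4a1 stood just outside the threshold in transitional cells. It was at 30.75, 29.4 and 22.7 CPM in WT and 19.7, 17.4 and 16.2 CPM in Sh3gl1-/- libraries. The groups did not overlap, and the difference was -0.64 (SE 0.15, 1.55-fold, adjusted p = 0.0516). Over the alternatives its adjusted p ranged from 0.00545 to 0.194, and it passed in 3 of 12. Egr2 was at 21.0, 20.6 and 17.1 CPM in WT and 13.8, 14.4 and 17.97 CPM in Sh3gl1-/- cells, with 1 Sh3gl1-/- library inside the WT range (difference -0.35, SE 0.16, adjusted p = 0.237).

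Fos, the gene that differed in follicular cells, overlapped between genotypes in transitional cells. It was at 6.56, 10.1 and 14.2 CPM in WT and 8.14, 5.42 and 10.4 CPM in Sh3gl1-/- libraries (difference -0.36, SE 0.32, adjusted p = 0.547). The 95% limits ran from -1.08 to 0.35, and WT libraries spread widely. Egr1 was at 16.2, 14.3 and 14.8 CPM in WT and 10.3, 15.3 and 19.5 CPM in Sh3gl1-/- cells, a difference of -0.01 (SE 0.22), and the Sh3gl1-/- libraries spread on both sides of WT. Fosb, Junb, Egr3, Ier2 and Dusp1 differed by -0.87 (SE 0.56) to 0.75 (SE 0.55), with adjusted p values of 0.41 or more. Neutrophil, plasma cell and marginal zone markers moved with genotype in these libraries as given above. The 4 red cell markers summed to 1267 to 2252 TPM in WT and 2416 to 4963 TPM in Sh3gl1-/- transitional cells, with 4 of 4 higher without overlap. The 5 transitional markers summed to 1639 to 1903 and 885 to 1539 TPM, with 3 of 5 lower, and the 5 B cell markers to 11350 to 12940 and 8161 to 11130 TPM, with 1 of 5 lower. Of all genes tested, 13.6% were higher and 14.4% lower without overlap. The part of these markers was not tested.

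**Figure D3:**
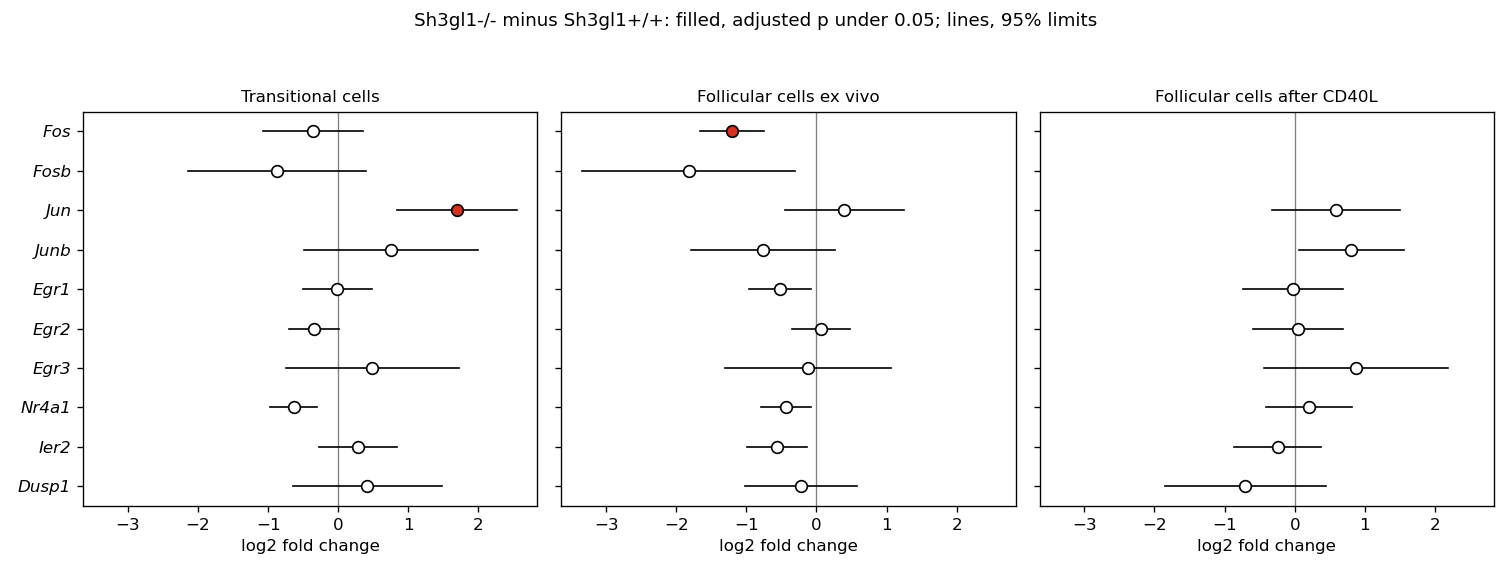
Log2 fold change of Sh3gl1-/- against WT (x axis) for each gene (y axis) in 3 panels, for transitional cells, for ex vivo follicular cells and for cultured follicular cells, from edgeR, with 95% limits (lines) and filled points where the adjusted p was under 0.05. Jun at 1.69 in transitional cells and Fos at -1.20 in follicular cells are the filled points, and Fos and Fosb were not tested after culture because their counts were too low.

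After CD40L culture, 0 of the 8 genes that could be tested differed between genotypes by edgeR, and also 0 by DESeq2 and by limma, against 0.0227% (3) of the 13188 genes tested. At an unadjusted p under 0.05 there was 1 (against 7.07% of all genes tested), Junb (chr8:84974484-84978718, minus strand), which encodes an AP-1 subunit that is a weaker activator than c-JUN. Junb was at 2.90, 2.61 and 1.84 CPM in WT and 3.60, 5.28 and 3.76 CPM in Sh3gl1-/- cells. The groups did not overlap, and the difference was 0.81 (SE 0.33, adjusted p = 0.687). Fos had 1, 4 and 1 counts in WT and 1, 0 and 3 counts in Sh3gl1-/- cultured libraries, at or near the floor of 3 counts, and Fosb had 0 counts in all 6, so no difference between genotypes was detectable at this depth. The remaining genes differed by -0.70 (Dusp1, SE 0.51) to 0.87 (Egr3, SE 0.59), with adjusted p values of 0.764 or more. Egr1, Egr2 and Nr4a1, with the most counts, were at -0.02 (95% limits -0.74 to 0.69), 0.05 (-0.59 to 0.69) and 0.20 (-0.41 to 0.82). The 6 neutrophil markers summed to 15.8 to 75.5 TPM in WT and 93.7 to 333 TPM in Sh3gl1-/- cultured cells. Of these 6, 4 were higher without overlap. Of the 4 marginal zone markers 2, of the 5 transitional markers 2 and of the 5 B cell markers 0 were lower without overlap. Of all genes tested, 6.21% were higher and 7.62% lower without overlap. The part of these markers was not tested.

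Transitional and follicular cells ex vivo were compared within each genotype to ask how the genes change with maturation. In WT cells, Egr2 was higher and Ier2 and Jun were lower in transitional than in follicular cells. These 3 of 10 called genes stood near the background, since 25.9% of all 14580 genes tested passed. In Sh3gl1-/- cells 1 of 10, Egr1, passed, against 10.4% of all genes tested. Markers of other cells moved with stage too. The 6 monocyte and macrophage markers summed to 489 to 573 TPM in WT transitional and 109 to 139 TPM in WT follicular cells, with 6 of 6 higher without overlap, and to 443 to 787 and 116.0 to 257 TPM in Sh3gl1-/- cells, with 5 of 6 higher. The 4 plasma cell markers summed to 393 to 624 and 51.9 to 110.0 TPM in WT cells and to 986 to 3906 and 116.0 to 140 TPM in Sh3gl1-/- cells, with 1 of 4 higher in each. Of the 6 T cell markers 5, and of the 4 NK cell markers 3, were lower without overlap in Sh3gl1-/- transitional than follicular cells. Of all genes tested, 20.9% were higher without overlap in WT transitional cells. In Sh3gl1-/- transitional cells 15.7% were higher and 14.7% lower without overlap. The part of these markers in the stage differences was not tested.

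Egr2 (chr10:67535475-67542188, plus strand), a factor that restrains antigen receptor responses in lymphocytes, was at 17.1 to 21.0 CPM in WT transitional cells and at 10.05, 9.88 and 10.7 CPM in WT follicular cells. The groups did not overlap, and the difference was 0.93 (SE 0.16, 1.91-fold higher, adjusted p = 0.00107). In Sh3gl1-/- cells it was at 13.8 to 17.97 CPM in transitional and 12.3, 8.87 and 10.8 CPM in follicular cells, again without overlap, with a difference of 0.54 (SE 0.16, adjusted p = 0.05001), just outside the threshold. Egr1 was higher in Sh3gl1-/- transitional than follicular cells by 0.86 (SE 0.21, adjusted p = 0.018), and all 3 transitional libraries exceeded all 3 follicular ones. In WT cells its difference was 0.33 (SE 0.21, adjusted p = 0.274), also without overlap. Without single libraries, the Egr1 call in Sh3gl1-/- cells held in 3 of 6 fits.

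Ier2 was at 9.29, 5.36 and 6.00 CPM in WT transitional cells, all below the 12.5 to 19.1 CPM of WT follicular cells. The difference was -1.27 (SE 0.22, 2.41-fold lower, adjusted p = 0.00105). In Sh3gl1-/- cells it was at 7.79, 8.55 and 8.84 CPM in transitional cells, below the 10.1 to 12.4 CPM of follicular cells, with a difference of -0.41 (SE 0.22, adjusted p = 0.283). Jun was at 0.819 to 1.57 CPM in WT transitional and 2.66, 2.22 and 3.99 CPM in WT follicular cells, a difference of -1.18 (SE 0.40, adjusted p = 0.0443) that passed in 1 of 6 fits without single libraries. In Sh3gl1-/- cells Jun differed by 0.13 (SE 0.37), and the groups overlapped, at 3.63 to 5.39 and 2.30 to 5.23 CPM. The Egr2 and Ier2 calls in WT cells passed in all 13 alternatives run, and the Jun call in 6 of 13.

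Dusp1 (chr17:26505590-26562128, minus strand) was at 0.752, 1.86 and 1.42 CPM in WT transitional cells and 2.14, 3.64 and 3.24 CPM in WT follicular cells, without overlap and just outside the threshold (difference -1.17, SE 0.42, adjusted p = 0.0542). Junb differed by -1.26 (SE 0.53, adjusted p = 0.0988) in WT cells, where 1 follicular library at 1.42 CPM fell inside the transitional range of 0.67 to 1.501 CPM. Fos, Fosb, Egr3 and Nr4a1 did not pass in either genotype. Nr4a1 was nearly level between stages, with a difference of 0.02 in WT cells (SE 0.16, 95% limits -0.33 to 0.37).

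**Figure D4:**
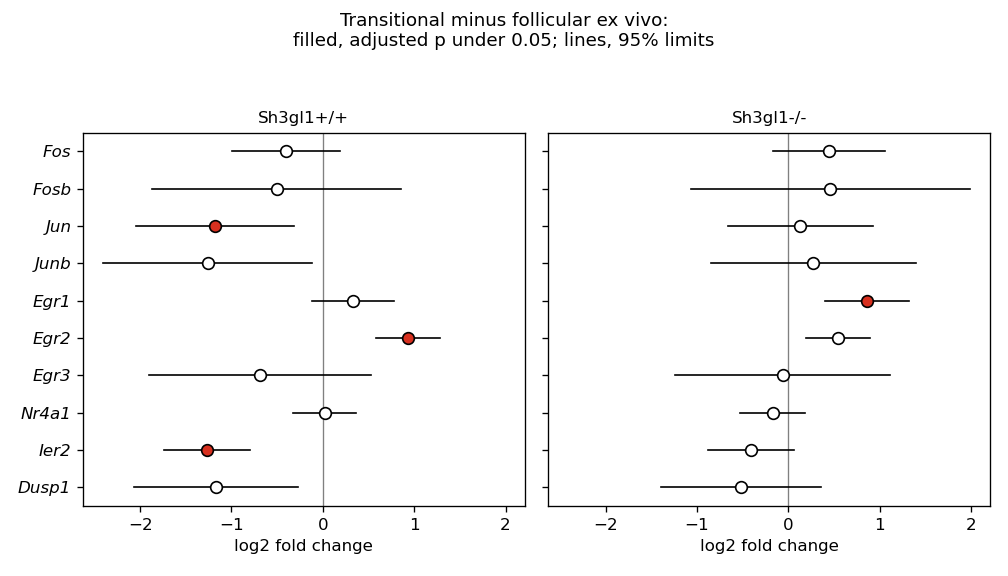
Log2 fold change of transitional against follicular cells ex vivo (x axis) for each gene (y axis) in WT and Sh3gl1-/- mice, from edgeR, with 95% limits (lines) and filled points where the adjusted p was under 0.05. In WT cells Egr2 is filled at 0.93 and Jun and Ier2 at -1.18 and -1.27, and in Sh3gl1-/- cells Egr1 is filled at 0.86.

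Whether the stage difference itself differed between genotypes was tested as an interaction on the 12 ex vivo libraries. None of the 10 genes passed by edgeR (0.0686% of all genes tested did), and 2 of the 10, Ier2 and Jun, had an unadjusted p under 0.05, against 13.7% of all genes tested. The interaction was 0.86 for Ier2 (SE 0.31, adjusted p = 0.245), 1.31 for Jun (SE 0.55, adjusted p = 0.311), 1.54 for Junb (SE 0.75, adjusted p = 0.385) and 0.85 for Fos (SE 0.40, adjusted p = 0.366). DESeq2 and limma also called 0 of the 10. A stage difference that depends on genotype was therefore not shown for any of the 10, and the 95% limits were wide, from 0.14 to 2.49 for Jun and from 0.19 to 1.52 for Ier2.

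Follicular cells after CD40L culture were compared with follicular cells ex vivo within each genotype, to ask how the genes respond to CD40L. These comparisons share their ex vivo libraries with the stage comparisons. After 14 h, 6 of the 10 genes were lower in WT cells (against 25.7% of the 14460 genes tested) and 7 of the 10 were lower in Sh3gl1-/- cells (against 21.8%). The genes lower in both genotypes were Fos, Fosb, Jun, Egr1, Nr4a1 and Ier2, and Dusp1 was called lower in Sh3gl1-/- cells. No gene of the 10 was called higher in WT cells, and 1, Junb, was called higher in Sh3gl1-/- cells (against 20.6% of all genes tested). The median log2 fold change of the 10 was -1.44 in WT and -1.15 in Sh3gl1-/- cells, against -0.08 and -0.03 over all genes tested.

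The FOS genes showed the widest gap. Fos fell from 201, 225 and 182 counts ex vivo to 1, 4 and 1 counts in WT cells, and from 78, 112 and 65 counts to 1, 0 and 3 counts in Sh3gl1-/- cells. From the summed counts, scaled to library size, the ex vivo level was 103 times the cultured level in WT (95% counting interval 47.2 to 283) and 63.3 times in Sh3gl1-/- cells (24.4 to 234). These intervals overlap widely and cover counting error only. Fosb had 12 to 30 counts ex vivo in WT and 2 to 11 in Sh3gl1-/- cells, and 0 in all 6 cultured libraries, so it was at least 21.1-fold lower in WT and at least 5.29-fold lower in Sh3gl1-/- cells, at a floor of 3 counts over the group. In edgeR, the adjusted p of Fos was 1.264e-07 in WT and 9.164e-07 in Sh3gl1-/- cells, and that of Fosb was 0.00122 and 0.015. Without the first Sh3gl1-/- ex vivo library, which held 11 of its 16 counts, the adjusted p of Fosb was 0.055.

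Egr1 was at 11.2 to 13.1 CPM ex vivo and 3.59, 3.21 and 2.82 CPM after CD40L in WT cells, a difference of -1.93 (SE 0.24, 3.81-fold lower, adjusted p = 1.525e-05). In Sh3gl1-/- cells it was at 6.51 to 9.25 CPM ex vivo and 3.46, 3.52 and 2.32 CPM after culture, a difference of -1.44 (SE 0.24, 2.72-fold lower, adjusted p = 0.000269). The cultured libraries of the genotypes overlapped, and the ex vivo libraries did not. Nr4a1 fell from 23.3 to 32.4 CPM to 7.80, 11.8 and 7.71 CPM in WT cells (difference -1.60, SE 0.23, adjusted p = 6.932e-05), and from 17.0 to 23.4 CPM to 7.42, 12.5 and 10.96 CPM in Sh3gl1-/- cells (difference -0.99, SE 0.23, adjusted p = 0.00363). No cultured library of either genotype reached an ex vivo one of the same genotype.

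Ier2 after CD40L was at 5.80, 6.22 and 4.47 CPM in WT and 4.38, 5.51 and 3.76 CPM in Sh3gl1-/- cells, below all follicular libraries ex vivo. The differences were -1.62 (SE 0.23, adjusted p = 4.66e-05) in WT and -1.32 (SE 0.23, adjusted p = 0.000401) in Sh3gl1-/- cells. Jun had 23, 17 and 16 counts after culture in WT and 31, 19 and 28 in Sh3gl1-/- cells, with differences of -1.28 (SE 0.40, adjusted p = 0.0158) and -1.11 (SE 0.39, adjusted p = 0.033). The Jun call held without single libraries in 3 of 6 fits in WT and 1 of 6 in Sh3gl1-/- cells. Dusp1 was at 2.07, 1.87 and 1.78 CPM in WT and 0.706, 2.08 and 0.689 CPM in Sh3gl1-/- cultured cells. Its differences were -0.68 (SE 0.43, adjusted p = 0.205) and -1.19 (SE 0.45, adjusted p = 0.0473), and the latter call held in 1 of 6 fits without single libraries.

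Egr2, Egr3 and Junb were not called lower in either genotype. Egr2 was at 9.87, 21.7 and 12.7 CPM in WT cultured cells, where 1 library stood far above the others, and at 13.5, 13.99 and 17.5 CPM in Sh3gl1-/- cultured cells. It differed from ex vivo cells by 0.51 (SE 0.25, adjusted p = 0.112) in WT and 0.48 (SE 0.25, adjusted p = 0.147) in Sh3gl1-/- cells, with lower 95% limits of -0.03 and -0.07. In WT cells the Egr2 difference was 0.12 (adjusted p = 0.67) without the second cultured library and 0.72 (adjusted p = 0.0211) without the first. Egr3 (chr14:70077203-70082614, plus strand), with 5 to 20 counts per follicular library, differed by -0.72 (SE 0.58) and 0.26 (SE 0.57).

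Junb differed by 0.01 (SE 0.39, 95% limits -0.83 to 0.85) in WT cells. In Sh3gl1-/- cells it rose from 1.65, 1.47 and 1.07 CPM ex vivo to 3.60, 5.28 and 3.76 CPM, a difference of 1.57 (SE 0.40, 2.96-fold higher, adjusted p = 0.00614) that passed in 6 of 6 fits without single libraries. The Junb gene overlaps Prdx2 on the opposite strand, which had 1578 to 3708 counts, and Dusp1 overlaps Ergic1 on the opposite strand, with 101 to 396 counts. The sources used here do not say if counting took strand into account, and without strand the reads of such neighbours cannot be told apart. Jun overlaps the antisense gene Junos, with 0 to 10.5 counts.

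**Figure D5:**
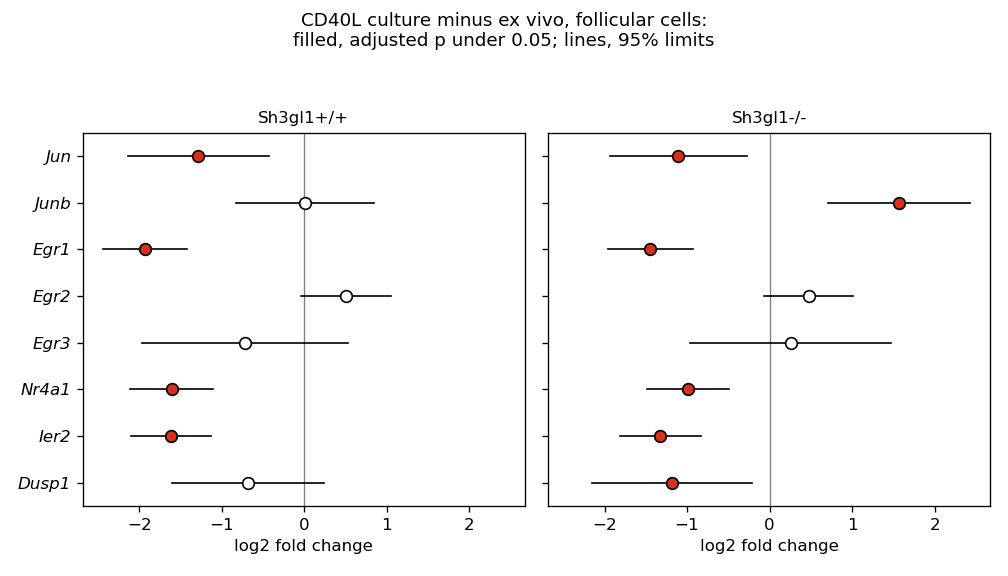
Log2 fold change of follicular cells after CD40L culture against follicular cells ex vivo (x axis) for 8 of the 10 genes (y axis) in WT and Sh3gl1-/- mice, from edgeR, with 95% limits (lines) and filled points where the adjusted p was under 0.05. Fos and Fosb are left out because their fitted values rest on counts at or near 0, and Egr1, Nr4a1 and Ier2 lie at -0.99 or lower in both genotypes while Junb is filled at 1.57 in Sh3gl1-/- cells.

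The difference between the responses of the genotypes was tested as an interaction on the 12 follicular libraries. None of the 10 genes passed by edgeR, against 0.0% of all genes tested, and 1 of the 10, Junb, had an unadjusted p under 0.05 (8.84% of all genes tested did). DESeq2 and limma also called 0 of the 10. The interaction was 1.56 for Junb (SE 0.56, 95% limits 0.36 to 2.75, adjusted p = 0.485), 0.61 for Nr4a1 (SE 0.33, adjusted p = 0.61) and 0.48 for Egr1 (SE 0.33, adjusted p = 0.708). A larger response in 1 genotype was therefore not shown for any of the 10 genes. For Fosb the test could not decide, since it had 0 counts in all 6 cultured libraries (SE 3387). For Fos the interaction of 0.75 (SE 0.99) rested on cultured counts at or near the floor. Many markers of other cells were also lower in the cultured libraries. NK cell markers summed to 37.8 to 107 TPM in follicular cells ex vivo and 2.18 to 4.95 TPM after culture, and T cell markers to 122 to 221 and 39.1 to 65.9 TPM. All 4 red cell markers were lower without overlap in both genotypes. Counted in the same way, 4 of 6 monocyte and macrophage markers were lower and 2 higher in WT, and 5 lower and 1 higher in Sh3gl1-/- cells. Neutrophil markers were lower in 5 of 6 cases in WT and 2 of 6 in Sh3gl1-/- cells. Of the 4 dendritic cell markers, 2 were lower in each genotype, and 1 was higher in WT and 2 in Sh3gl1-/- cells. B cell markers were lower in 4 of 5 and 2 of 5 cases. Of all genes tested, 29.6% were lower and 26.9% higher without overlap in WT, and 27.0% and 26.2% in Sh3gl1-/- cells. The part of these markers in the decrease was not tested.

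Related genes gave a mixed picture after CD40L. Of the 9 listed AP-1 and small MAF relatives, 6 could be tested, and 1 was higher and 2 were lower in WT, and 2 higher and 2 lower in Sh3gl1-/- cells. For these and the following lists, 23.6% of all genes tested were called higher and 25.7% lower after CD40L in WT cells, and 20.6% and 21.8% in Sh3gl1-/- cells. Jund, the constitutively expressed JUN relative, fell by 1.35 (SE 0.27, adjusted p = 0.00104) on the log2 scale in WT and by 0.99 (SE 0.27, adjusted p = 0.00973) in Sh3gl1-/- cells, while Mafg rose by 0.72 (SE 0.18) and 0.65 (SE 0.18). Fosl1, which encodes the FOS relative FRA1, was at 0.138 to 0.735 CPM in WT and 0.719 to 1.82 CPM in Sh3gl1-/- cultured cells and at or below 0.309 CPM in follicular cells ex vivo, so its fitted change rests on counts near 0. Of the 5 EGR and NR4A relatives and EGR corepressors, Nr4a2, Nr4a3 and Egr4 did not reach the count minimum, and Nab2, a corepressor of EGR proteins, was lower in WT cells after CD40L (-0.98, SE 0.32, adjusted p = 0.0197) and was at 0.06 (SE 0.31, adjusted p = 0.898) in Sh3gl1-/- cells. The interaction for Nab2 was 1.04 (SE 0.44, adjusted p = 0.539).

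Among 28 tested genes of a wider list of primary response genes, 9 were higher and 12 lower after CD40L in WT cells, and 8 were higher and 12 lower in Sh3gl1-/- cells. The NF-kappaB targets Tnfaip3 and Cd83 rose by 3.69 (SE 0.23) and 1.84 (SE 0.12) in WT and by 3.32 (SE 0.23) and 1.51 (SE 0.12) in Sh3gl1-/- cells. Zfp36, which encodes an mRNA decay factor, fell by 2.40 (SE 0.11) and 2.28 (SE 0.11), and the kinase gene Sgk1 fell by 3.76 (SE 0.27) and 3.32 (SE 0.27). Members of the list moved far in either direction, and its median was -0.20 in WT and 0.01 in Sh3gl1-/- cells against -0.08 and -0.03 over all genes. In the genotype comparisons 1 gene of this list was called, Btg1, an antiproliferative gene that was higher in Sh3gl1-/- follicular cells ex vivo (0.34, SE 0.06, adjusted p = 0.034).

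Of 9 tested MAP kinase phosphatases and ERK pathway inhibitors, 2 were higher and 4 were lower after CD40L in both WT and Sh3gl1-/- cells. Dusp6, the ERK phosphatase, fell by 2.57 (SE 0.22, adjusted p = 6.517e-07) and 2.85 (SE 0.23, adjusted p = 3.625e-07), and Dusp2 fell by 1.21 (SE 0.23) and 0.99 (SE 0.22). Between stages, 4 of these 9 were higher and 1 was lower in WT transitional cells (against 14.2% and 11.7% of all genes tested), among them Dusp10 (2.55, SE 0.28), Dusp6 (0.87, SE 0.15) and Dusp5 (1.31, SE 0.39), and 3 were higher in Sh3gl1-/- transitional cells, the same 3 genes (against 6.71% of all genes tested). Of 20 kinases and factors upstream of the immediate early genes, 3 were higher and 8 lower after CD40L in WT cells and 5 higher and 5 lower in Sh3gl1-/- cells, the latter counts near the shares of all genes given above. Rasgrp1, which links the antigen receptor to RAS, fell by 1.60 (SE 0.13) and 1.76 (SE 0.13), and the ternary complex factor gene Elk3 rose by 1.79 (SE 0.14) and 1.82 (SE 0.14). Rasgrp3 was the gene of this list called between genotypes, higher in Sh3gl1-/- follicular cells ex vivo (0.38, SE 0.07, adjusted p = 0.0371).

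Heat shock genes were listed because handling of cells can raise them together with immediate early genes. Of the 8 listed, 6 were tested in each comparison. In the CD40L response these were Hspa8, Dnajb1, Hsp90aa1, Hspe1, Hspd1 and Hsph1. Hspa1a and Hspa1b, the rest of the list, were not tested there. In each comparison the following counts do not cover the untested genes of the list. None of the 6 tested was called between genotypes by edgeR in any of the 3 cell states, and at an unadjusted p under 0.05 there were 0 in transitional cells (against 21.8% of all genes tested), 2 in follicular cells ex vivo (Hspa8 at 0.50 and Dnajb1 at -0.41, against 10.9%) and 2 after culture (Hsp90aa1 at -0.39 and Hspe1 at -0.28, against 7.07%). These 4 genes were named after their values were seen. After CD40L culture 5 of 6 were higher in WT (against 23.6% of all genes tested) and 6 of 6 in Sh3gl1-/- cells (against 20.6%). The medians were 1.83 and 1.34. The part of handling, of culture and of CD40L in the levels of these genes and of the 10 genes was not tested.

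The genes whose level was most like the mean profile of the 10 genes over the 18 libraries were Dgka, Runx1 and Ssh2, with Pearson r from 0.963 to 0.97 across the 18 libraries. Dgka ranged from 32.3 to 173 CPM. Likeness was also taken after the mean of each group was subtracted. The highest r was then 0.833, for A930024E05Rik, followed by 0.815 for Vps51 and 0.806 for Rbm27, none of which was among the 10 most like genes before. Both are descriptions, with no test, over libraries that share a cell state and genotype within groups and differ in depth.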

How the data were processed

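RNA was sequenced from 18 libraries in 6 groups of 3, and each library was put in its group by its GEO labels. Per the labels and the submitters' processing notes, the deposited values are RSEM estimated counts (expected counts), TPM and FPKM per gene on GRCm38, with cutadapt 1.9.1, STAR 2.5.2a and RSEM 1.3.0 named in the notes, while the paper's methods name TopHat and Cufflinks. The labels name a stranded kit and the methods SMART-Seq HT with Nextera XT. The deposited TPM were made by the authors with RSEM and were used to compare genes with each other, and the deposited FPKM were not used.

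Expected counts were rounded to whole numbers and tested with edgeR 4.0.16 (R 4.3.3, quasi-likelihood test, TMM, filterByExpr), with Benjamini-Hochberg adjustment over all genes tested and a threshold of 0.05. SE is the absolute log2 fold change over the root of F. Genotypes were compared in fits of 6 libraries, and stages and CD40L responses in fits of 12 libraries with 1 coefficient per group. CPM used TMM factors over 18 libraries. The fits were tested on simulated counts with known changes. The changes were put only in genes above a minimum mean count, at a fixed spread. Genes with few counts, such as Fosb and Egr3, are therefore not covered by the simulation. The libraries held 12404665 to 18366011 counts. Intervals on counts cover counting error only. The edgeR p-values set each difference against the spread between libraries of a group. That spread was taken from all groups of the fit, also those not compared, with information shared between genes.

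DESeq2 1.42.0, limma 3.58.1 on log2(TPM + 1), other size factors, no count filter, all 18 libraries, a replicate block, and single libraries left out were the alternatives. Libraries with the same replicate number in the labels deviated together in the stage comparisons (r = 0.103 to 0.242 in WT, 0.115 to 0.264 in Sh3gl1-/-) and in the WT CD40L response (0.136 to 0.224), so the numbers were read as pairing there. In the Sh3gl1-/- CD40L response r was lower (0.0304 to 0.119) and the numbers were not read so. It was still above that of libraries with different numbers (at most 0.00305), so pairing is possible there too. Between genotypes the numbers were not read as pairing. The main fits did not use the numbers in any comparison. The block gave each number 1 effect, shared by both genotypes, so it did not model pairing within a genotype.

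The 10 genes and the lists of other genes were chosen with earlier results of these data known. From each list, up to 4 called genes per comparison with the lowest adjusted p could be named, and by likeness the 10 genes with the highest r over 15107 genes.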

Additional observations from a re-analysis of the deposited data

How the results depend on the processing

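Of the 10 genes, the number called between genotypes in transitional cells was 1, and was 2 with DESeq2 and with all genes with at least 1 count, 0 with limma, 0 with the replicate block and 0 to 1 with single libraries left out, where the 1 was Nr4a1, without the third WT library. In follicular cells ex vivo it was 1, and was 0 with limma, 0 with all 18 libraries and 0 to 1 with libraries left out. For the stage difference in Sh3gl1-/- cells it was 1, and was 2 with DESeq2, 2 with limma, 0 with only the 6 libraries compared and 0 to 2 with libraries left out. For the CD40L response in Sh3gl1-/- cells it was 8, and was 6 with all genes, 6 with only the 6 libraries compared, 7 with limma and 5 to 7 with libraries left out. With all genes the adjusted p was 0.0648 for Jun and 0.0703 for Dusp1, with only the 6 libraries 0.0798 for Dusp1, and with limma 0.283 for Fosb. The cause of these changes was not tested.

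Over all genes, calls between genotypes in transitional cells were 514, against 1340 with DESeq2, 1426 with all genes, 182 with limma, 90 with the replicate block, 144 with all 18 libraries and 28 to 479 with libraries left out. In follicular cells they were 115, against 352, 602, 64, 212, 49 and 32 to 112 in the same order. After CD40L they were 3, against 79 with DESeq2, 216 with all genes, 21 with the block, 82 with all 18 libraries and 1 to 9 with libraries left out. The stage by genotype interaction gave 10, against 364 with DESeq2, 462 with all genes, 0 with limma, 20 with the block, 0 with all 18 libraries and 0 to 23 with libraries left out, and the CD40L by genotype interaction gave 0, against 29 with DESeq2, 210 with all genes and 0 to 1 with libraries left out. Stage calls with libraries left out were 2444 to 3324 in WT and 986 to 1351 in Sh3gl1-/- cells. The block changed no call of the 10 genes in the stage comparisons and the WT CD40L response, but its effects were shared by both genotypes, so the pairing within a genotype was not tested. Between genotypes it moved the adjusted p of Jun in transitional cells to 0.0841.

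Some differences, none of them called and not all of them near 0, changed sign. With limma these were Egr2 in follicular cells (-0.0526), Egr1 between genotypes after CD40L (0.0019), Junb in the WT CD40L response (-0.0534) and Egr2 in the CD40L interaction (0.0691). With libraries left out, Egr1 between genotypes ran from -0.24 to 0.21 in transitional cells and from -0.13 to 0.15 after CD40L, and Egr2 from -0.0552 to 0.18 in follicular cells and from -0.18 to 0.44 after CD40L. Egr3 in follicular cells ran from -0.56 to 0.0622, and Nr4a1 in the WT stage difference from -0.0803 to 0.17. In the Sh3gl1-/- stage difference Fosb ran from -0.16 to 1.60, Jun from -0.15 to 0.40, Junb from -0.24 to 0.59 and Egr3 from -0.25 to 0.37. Junb in the WT CD40L response ran from -0.22 to 0.52 and Egr3 in the Sh3gl1-/- one from -0.12 to 0.72. In the CD40L interaction Fos ran from -0.40 to 1.68, Jun from -0.094 to 0.46 and Egr2 from -0.23 to 0.36.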
